A study of Mus musculus with 6 samples.

Results

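The formative and primed pluripotency genes described here are Otx2, Dnmt3a, Dnmt3b, Fgf5, Pou3f1, Zic2, Foxd3, Lin28b, Etv4 and Etv5, 10 of the 21887 protein-coding genes of the RefSeq table. They were chosen by name, and every listed H3K4me3 and WDR5 region from 20 kb before to 20 kb after each gene was taken. These windows held 72 of the 71695 H3K4me3 regions of the WT rescue list and 67 of the 74305 of the mutant rescue list. They held 8 of the 11095 WDR5 regions of the WT rescue and 16 of the 26888 of the mutant rescue.

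The data are chromatin immunoprecipitation sequencing (ChIP-seq) of mouse embryonic stem cells with a GFP knock-in at Rx, a retinal homeobox gene, grown in 2i+LIF, a medium with a pair of kinase inhibitors and the cytokine LIF. Both lines lack endogenous Wdr5 and p53. The WT rescue (WT line) carries wild-type WDR5, and the mutant rescue (mutant line) carries WDR5 with the substitutions S91K and Y191F. The labels do not say how the rescue proteins were expressed, at what level, or whether each line is 1 clone. For each line there was 1 WDR5 library and 1 H3K4me3 library after 10 minutes in 1% formaldehyde, so nothing that sets the lines apart could be checked against replicates and no test is given. The input libraries were not analysed here.

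Embryonic stem cells in 2i+LIF are held close to the naive state of the early epiblast. On leaving it they pass through a formative state, in which they become able to respond to lineage signals, and then a primed state like that of the later epiblast. Otx2, Pou3f1, Zic2 and Foxd3 encode transcription factors of this transition, Dnmt3a and Dnmt3b the de novo DNA methyltransferases that methylate the genome during it, and Fgf5 a secreted growth factor used as its marker. Lin28b encodes an RNA-binding protein that blocks maturation of let-7 microRNAs, and Etv4 and Etv5 encode ETS transcription factors induced by FGF/ERK signalling. WDR5 is a scaffold subunit of the methyltransferase complexes that trimethylate lysine 4 of histone H3 (H3K4me3), a mark of promoters that does not by itself show that a gene is active.

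The RefSeq promoter table (build GRCm38.p6, the coordinates of mm10) held 13 promoters of 7 members: Otx2, Dnmt3a, Dnmt3b, Fgf5, Foxd3, Lin28b and Etv5. Of these 13 promoters of 300 bases, 11 lay wholly or partly in an H3K4me3 region of both lines and 0 in a listed WDR5 region. The promoter table did not hold Pou3f1, Zic2, Etv4 or the upstream Lin28b start. WDR5 regions were listed at these places, as described below, so the 0 does not cover them. Over the 13 promoters the number of CpG dinucleotides ran from 6 to 47, with a median of 19. The median over the 32851 promoters of the table was 7. The Dnmt3a promoters at 3806980 and 3807160 held 46 and 47, and the Otx2 promoter farthest upstream held 6. The sequences below are the 250 bases before 5 start sites. They are shown because each holds 1 of the motifs searched and lies wholly or partly under H3K4me3 in both lines. The capitals mark the motif on either strand. At Foxd3 the motif itself lies outside the H3K4me3 region, which begins at 99656139 in the WT line and 99656101 in the mutant line.
Foxd3 chr4:99656049-99656298 (+): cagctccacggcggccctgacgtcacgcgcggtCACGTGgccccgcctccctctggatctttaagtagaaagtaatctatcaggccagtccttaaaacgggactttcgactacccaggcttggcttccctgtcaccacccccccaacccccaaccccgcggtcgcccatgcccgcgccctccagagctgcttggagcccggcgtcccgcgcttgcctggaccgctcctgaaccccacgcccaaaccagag
Dnmt3a internal start chr12:3891494-3891743 (+): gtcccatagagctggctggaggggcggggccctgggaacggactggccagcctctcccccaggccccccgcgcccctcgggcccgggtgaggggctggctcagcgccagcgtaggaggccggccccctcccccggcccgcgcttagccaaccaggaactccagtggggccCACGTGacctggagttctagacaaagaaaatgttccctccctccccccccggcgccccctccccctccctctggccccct
Lin28b internal start chr10:45470202-45470451 (-): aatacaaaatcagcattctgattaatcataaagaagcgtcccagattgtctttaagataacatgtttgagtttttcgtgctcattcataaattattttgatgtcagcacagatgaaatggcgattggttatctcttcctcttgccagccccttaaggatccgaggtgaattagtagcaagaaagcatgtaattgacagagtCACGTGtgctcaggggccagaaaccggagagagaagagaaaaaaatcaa
Otx2 internal start chr14:48665110-48665359 (-): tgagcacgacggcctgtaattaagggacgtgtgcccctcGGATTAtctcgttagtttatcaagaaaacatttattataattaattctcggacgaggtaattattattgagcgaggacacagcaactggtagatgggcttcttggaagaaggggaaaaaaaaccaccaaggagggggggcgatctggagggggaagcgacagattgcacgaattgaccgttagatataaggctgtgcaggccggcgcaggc
Etv5 internal start chr16:22438369-22438618 (-): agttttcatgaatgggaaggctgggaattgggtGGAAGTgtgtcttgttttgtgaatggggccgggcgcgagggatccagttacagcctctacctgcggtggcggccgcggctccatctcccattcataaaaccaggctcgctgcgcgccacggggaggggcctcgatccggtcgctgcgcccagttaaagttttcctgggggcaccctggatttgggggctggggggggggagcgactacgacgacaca

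The motif CACGTG, the E box read by MYC-family and related factors, lay at Foxd3, Dnmt3a and Lin28b, 217, 80 and 49 bases before the start. Matches were exact and on both strands, and 7.15% of all 300-base promoters of the table held this motif. TAATCC, the core read by OTX homeodomain proteins, lay at the internal Otx2 start, read there as its reverse complement GGATTA, and is found in 7.06% of all promoters. GGAAGT, an ETS core, lay at the internal Etv5 start 217 bases before it and again 2 bases after it, and is found in 23.8%. TATAAA was found at Otx2 and at Fgf5, in the latter 34 bases after the start, and in 13.6% of all promoters, whereas the octamer ATGCAAAT was in 0 of the 13 and in 1.74% of all. No motif overlapped another in these promoters, and a match is a description of letters and not of binding.

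**Figure D1:**
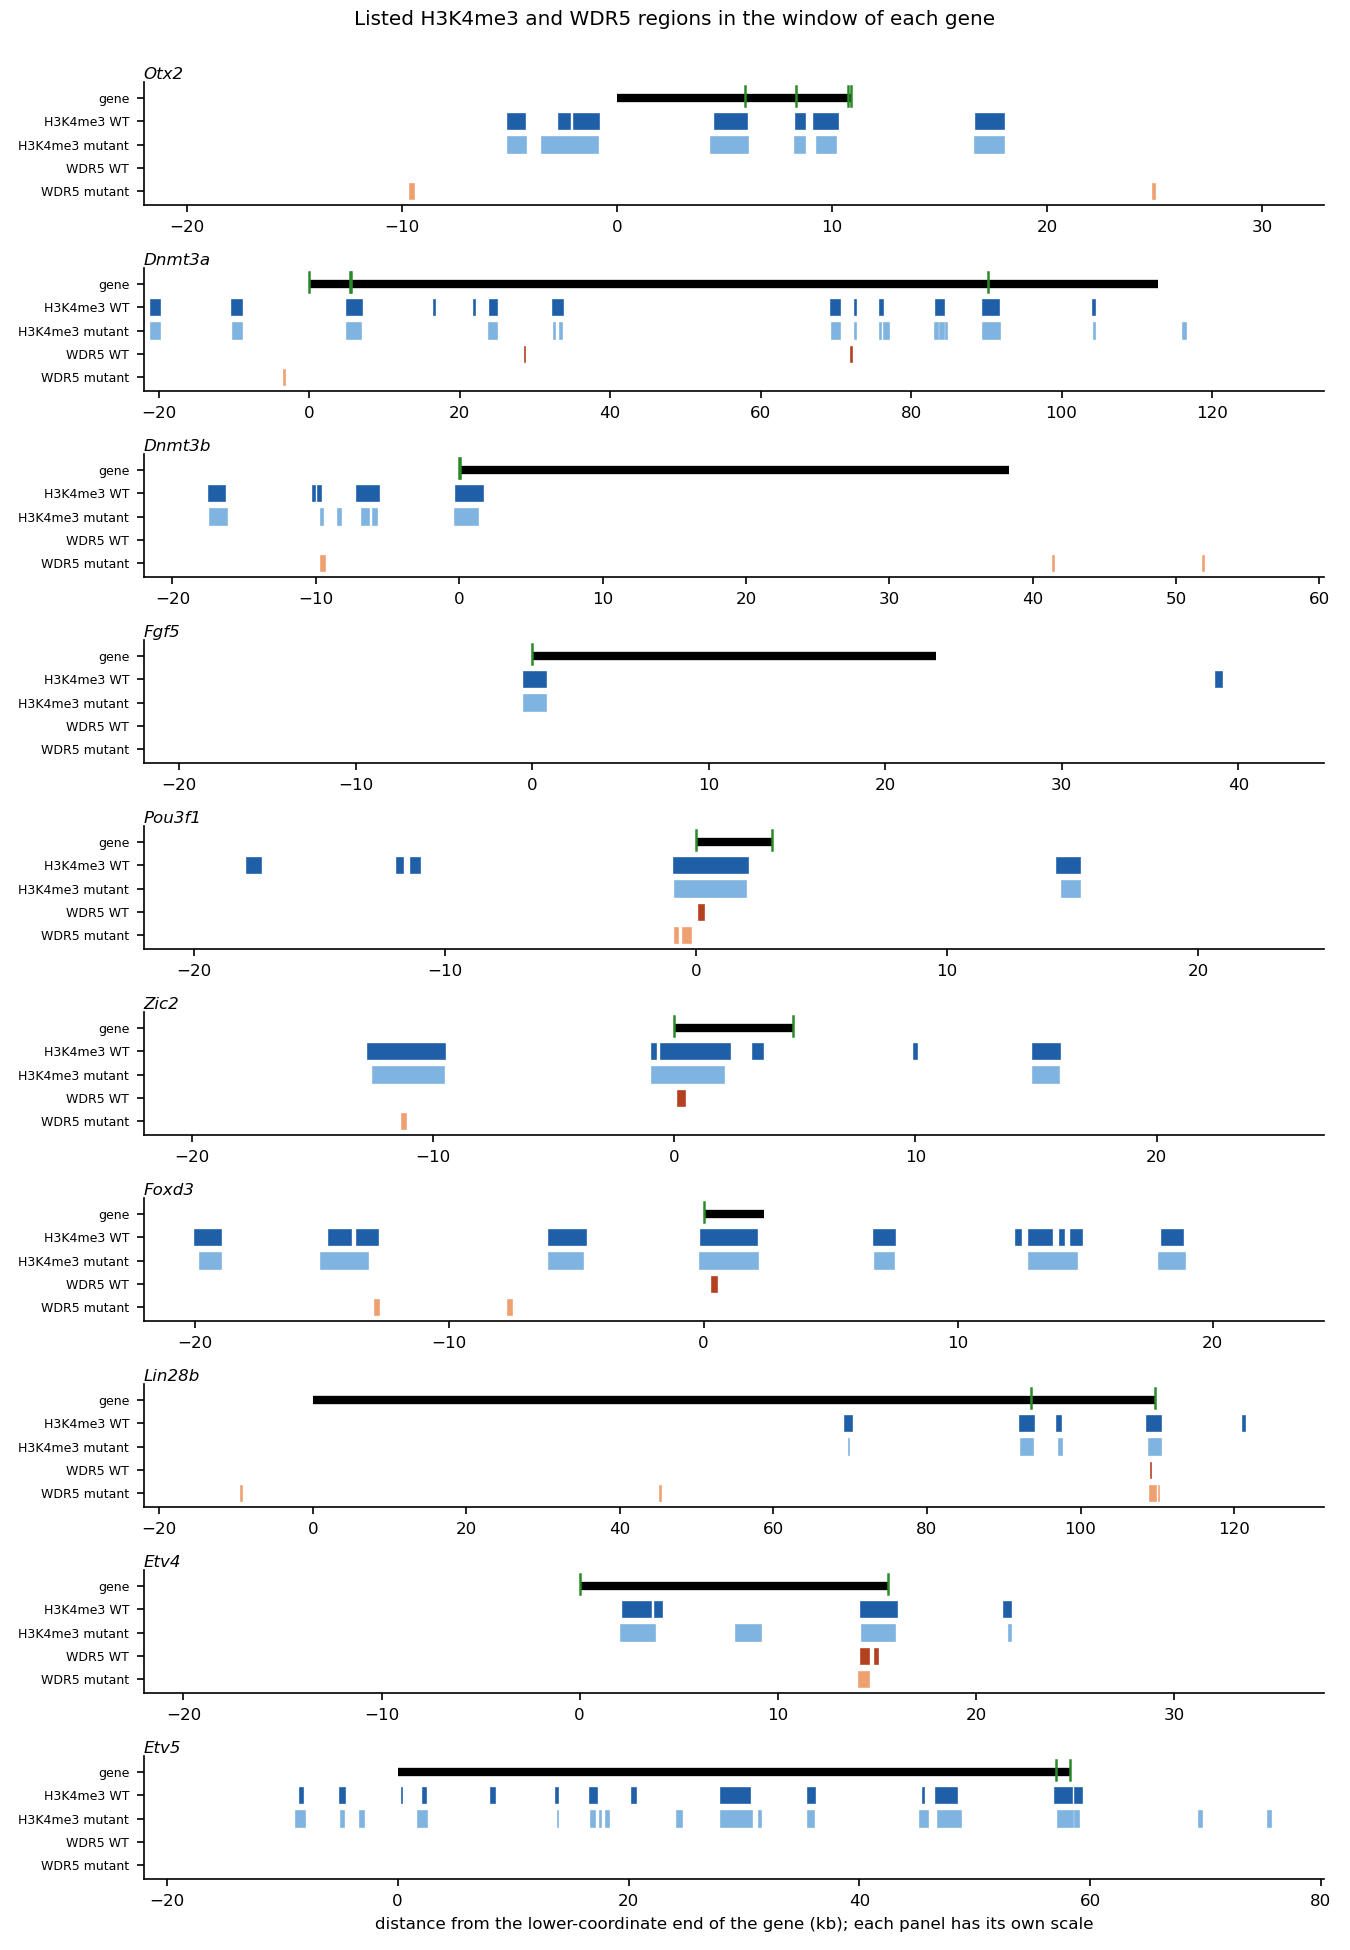
Listed regions around each of the 10 genes, drawn as boxes at their position in kb from the gene's lower-coordinate end, with the gene in black, annotated start sites as green ticks and 1 row per antibody and line. H3K4me3 boxes lie at a start of every gene in both lines, and WDR5 boxes lie there for 5 genes (WT rescue) and 3 genes (mutant rescue).

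All 10 members had an H3K4me3 region within 1 kb of an annotated start in the WT line and in the mutant line, beside 69.7% and 69% of all protein-coding genes. A region in both lines was found at 68.2% of all genes, in the WT line only at 1.48% and in the mutant line only at 0.749%. All 10 also had a region in the window, as did 86.5% and 86.1% of all genes. With only regions of −log10 q at least 2 the members' counts were again 10 and 10, beside 69.5% and 68.6% of all genes. For 7 members the start was read by strand, and for Pou3f1, Zic2 and Etv4 both gene ends were used, since no strand was at hand.

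Start sites of most members were covered over a longer stretch than those of the typical gene. The summed width of the H3K4me3 regions within 1 kb of a start had a median of 2645 bp in the WT line and 2609 bp in the mutant line over the 10 members, against 1603 and 1510 bp over the 14936 genes with a region in both lines. Members with several annotated starts add up several regions. Dnmt3a had the longest cover, 4390 bp in the WT line and 4447 bp in the mutant line. Among the genes with a start-site region in that line, this was in the top 0.498% and 0.384%. Lin28b followed with 3886 and 3395 bp, then Otx2 with 3186 and 3125 bp. Fgf5 was the only member below the gene medians, with 1315 and 1314 bp.

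The lines differed little in this length. The cover was shorter in the mutant line at 8 of 10 members and longer at Dnmt3a and Foxd3. It was shorter at 74.8% of the 14936 genes with a start-site region in both lines. The ratio of mutant to WT line had a median of 0.967 over the members, from 0.82 at Etv5 to 1.03 at Foxd3. Over the same 14936 genes its median was 0.949 (quartiles 0.893 and 1).

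**Figure D2:**
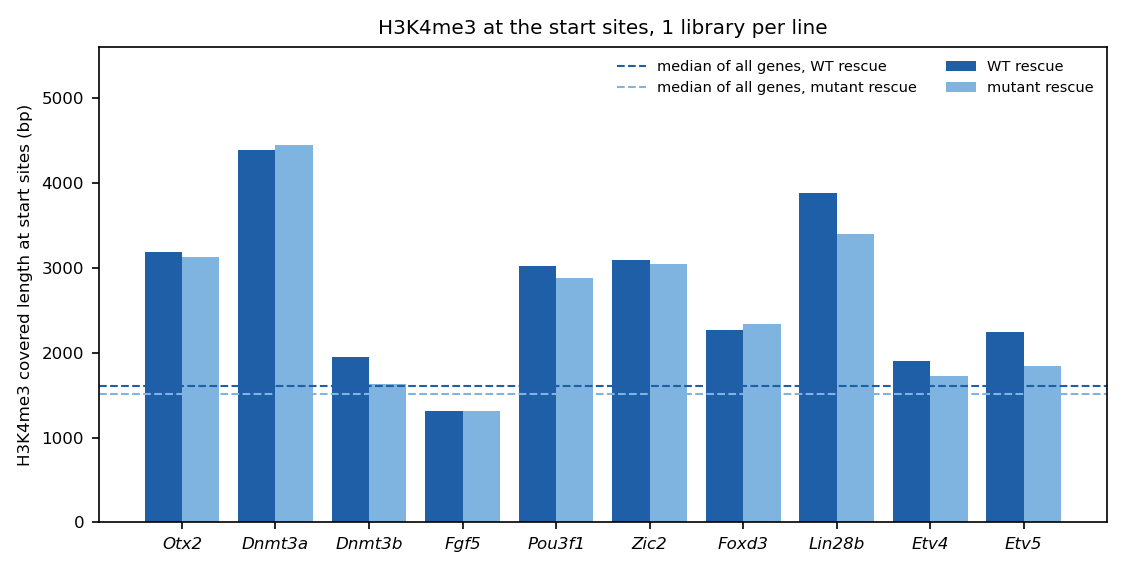
Summed width in bp of the H3K4me3 regions within 1 kb of a start for each gene. Dark bars are the WT rescue and light bars the mutant rescue, with 1 library per bar. Dashed lines, labelled as all genes, are medians of the 14936 genes with a region in both lines. Fgf5 lies below both medians, and Dnmt3a is highest in both lines.

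Among the transcription factor genes, Zic2, Pou3f1 and Foxd3 had broad domains over the start. Pou3f1 (chromosome 4, 124657646 to 124660655), a POU-domain factor gene also known as Oct6, had a domain of 3021 bp in the WT line and 2879 bp in the mutant line, with −log10 q of 174 and 118. Both covered most of the gene, and each stood at the 99.7th percentile of width in its list. The domain also spans the higher-coordinate end of the long non-coding RNA gene Gm2164. Zic2 (chromosome 14, 122475384 to 122480328), a zinc-finger factor gene, had regions of 172 and 2916 bp at its lower-coordinate end in the WT line. The mutant line had 1 region of 3042 bp over the same stretch, which also reaches the higher-coordinate end of the long non-coding RNA gene 2610035F20Rik. The WT line listed a further 477 bp inside Zic2 that had no counterpart in the mutant line.

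Foxd3 (chromosome 4, 99656299 to 99658671), a forkhead factor gene of 2373 bp, was covered for most of its length by a region of 2269 bp in the WT line and 2339 bp in the mutant line, with summits 2 bp apart. Its window held 11 H3K4me3 regions in the WT line and 7 in the mutant line, or 25.9 and 16.5 per 100 kb, the highest density among the members in the WT line and second to Etv5 (18.3) in the mutant line. The median over all protein-coding genes was 4.47 and 4.55 per 100 kb. The lower number in the mutant line came with wider regions: 2 of the WT line regions upstream met 1 mutant line region of 1894 bp, and 3 downstream met 1 of 1919 bp. The covered length in the window was close, 10137 and 10212 bp.

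Otx2 (chromosome 14, 48656781 to 48667644), which encodes the homeodomain factor that drives exit from the naive state, had a different layout. Of its 4 annotated starts, the 2 at the upstream end lay outside any region in both lines, and 3 regions lay within 1 kb of a start, of 1526, 495 and 1165 bp in the WT line and 1734, 498 and 893 bp in the mutant line. The region at the most downstream start had the highest −log10 q of these 3, at 83.7 and 143. The region of highest fold in the window lay upstream of the gene, with its summit 6.14 kb upstream of the nearest start in the WT line and 6.3 kb in the mutant line. It measured 1382 and 1370 bp with folds of 9.72 and 8.65, each the authors' value within its own list, and lies inside the long non-coding RNA gene Otx2os1. All 7 WT line regions and all 6 mutant line regions at Otx2 were overlapped in the other line, and downstream of the gene regions of 525 and 1224 bp in the WT line met 1 region of 2654 bp in the mutant line.

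Of the DNA methyltransferase genes, Dnmt3a (chromosome 12, 3801559 to 3914443) had broad H3K4me3 at both of its promoters. The upstream one, at the starts 3806980 and 3807160, had regions of 2119 bp in the WT line and 2020 bp in the mutant line. The internal one at 3891744, which drives the shorter isoform DNMT3A2, had regions of 2271 and 2427 bp with summits 5 bp apart. The −log10 q was 404 and 132 at these places in the WT line list and 355 and 81.3 in the mutant line list. The annotated gene end at 3801559 had no region within 1 kb in either line. Between and beyond the promoters the gene held 9 further regions in the WT line and 11 in the mutant line.

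At Dnmt3a the region of highest fold in the WT line was a narrow one of 283 bp inside the gene, from 3817976 to 3818258, with a fold of 10.4 and a −log10 q of 37.3, and the mutant line list had none there. Regions of 270 to 290 bp with a fold of at least 5 number 221 in the WT line H3K4me3 list, and 84.6% of them are overlapped in the mutant line. A region of 1449 bp from 3833829 in the WT line met 2 regions of 257 and 390 bp in the mutant line, and a region of 588 bp past the downstream end was in the mutant line alone.

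Dnmt3b (chromosome 2, 153649411 to 153687730), whose methyltransferase is widely used as a marker of cells leaving the naive state, had a single start-site region of 1951 bp in the WT line and 1633 bp in the mutant line. Its −log10 q was 470 and 530. The rest of the gene body held 0 regions in either line. Upstream, a broad and weak region of 1581 bp in the WT line (−log10 q 5.37) met 2 regions of 583 and 354 bp in the mutant line. The highest fold in this window, 16.5 and 13.9, was at the start of the neighbouring gene Commd7.

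Fgf5 (chromosome 5, 98254184 to 98277033), which encodes the growth factor, had the sparsest window. Its start-site region was nearly the same in both lines, 1315 bp from 98253647 in the WT line and 1314 bp from 98253665 in the mutant line, with −log10 q of 141 and 84.7. The only other H3K4me3 region was one of 429 bp in the WT line, past the gene's far end. Its window held 3.18 and 1.59 H3K4me3 regions per 100 kb and no listed WDR5 region in either line.

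The ETS genes differed from each other. Etv5 (chromosome 16, 22381313 to 22439570) had the most regions of any member, 14 in the WT line and 18 in the mutant line, of which 10 and 11 lay inside the gene away from its starts. Near the starts the regions were 1538 and 702 bp in the WT line and 1386 and 451 bp in the mutant line. The widest region in the window was intragenic, 2663 bp from 22409208 in the WT line and 2727 bp from 22409248 in the mutant line, with folds of only 2.71 and 2.62. Of its regions 11 of 14 in the WT line and 11 of 18 in the mutant line were overlapped in the other line, beside 80.7% and 77.7% of the whole lists.

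Etv4 (chromosome 11, 101769747 to 101785310) had its start-site region at the higher-coordinate end, 1898 bp in the WT line and 1725 bp in the mutant line, with −log10 q of 272 and 265. This end also adjoins the long non-coding RNA gene Gm39392. A region of 1306 bp inside the gene from 101777576 was in the mutant line list alone, the widest of all unmatched regions around the members, with a −log10 q of 5.83.

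Lin28b (chromosome 10, 45376617 to 45486314) had H3K4me3 at both annotated starts. At the upstream start, the gene's higher-coordinate end, the regions were 1932 bp in the WT line and 1719 bp in the mutant line, with summits 21 bp apart. At the internal start at 45470201 they were 1954 and 1676 bp, and the −log10 q was lower, 77.2 and 34.2 against 213 and 174 upstream. A distal region of 1138 bp inside the gene in the WT line met one of 251 bp in the mutant line list.

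Taking all windows, 58 of 72 WT line H3K4me3 regions (80.6%, exact interval 69.5 to 88.9%) were overlapped by at least 1 bp in the mutant line, beside 80.7% of the whole list. In the other direction it was 55 of 67 (82.1%, 70.8 to 90.4%), beside 77.7%. The intervals are Clopper-Pearson 95% intervals and cover counting error only. All 16 WT line and all 15 mutant line regions at a member's start were overlapped, so every unmatched region lay elsewhere. This is near the rule for all protein-coding genes, counted by gene. A start-site region was present in both lines at 14936 of them, of 15259 in the WT line and 15100 in the mutant line. Unmatched regions had lower medians of width and −log10 q, with exceptions such as the 283 bp region in Dnmt3a and the 1306 bp region in Etv4 described above. Their median width was 368.5 bp in the WT line and 309 bp in the mutant line, against 1087.5 and 1048 bp for matched ones. Their median −log10 q was 4.34 and 2.73 against 21.8 and 12.2. A wider region more readily shares 1 bp with another, and the whole lists were not split in this way. Of the regions in the windows 69 of 72 and 59 of 67 had a −log10 q of at least 2, beside 94% and 90.7% of the lists.

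Where 1 region met 1 region, 44 pairs in all, the mutant line region was the narrower at 31 and the wider at 13. The share over all such pairs of the lists was not computed. The count leaves out places where 1 mutant line region met several WT line regions, or the reverse. Start-site cover was shorter in the mutant line at 74.8% of the 14936 genes with a region in both lines. That cover is summed per gene at starts only, so it is not a background for these pairs. At the 14 such pairs at start sites the median distance between the summits of the lines was 22 bp and the largest 181 bp. Away from the starts it was 133.5 bp over 30 pairs, and the largest was 838 bp. The number of unmatched regions was uneven over the genes: in the WT line Pou3f1 and Etv5 had 3 each, Dnmt3a and Zic2 2 each, Dnmt3b, Fgf5, Foxd3 and Lin28b 1 each and Otx2 and Etv4 0. In the mutant line they were at Etv5 (7), Dnmt3a (3), Dnmt3b (1) and Etv4 (1), with 0 at the other 6 genes.

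**Figure D3:**
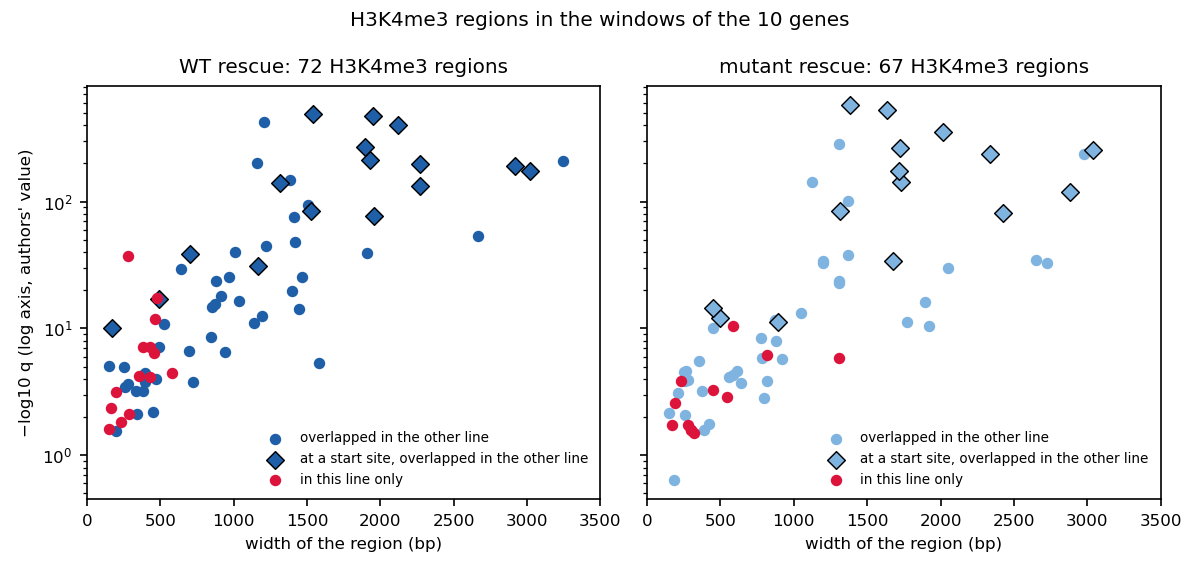
Width in bp against −log10 q (log axis, authors' values) for the H3K4me3 regions in the 10 windows, in the WT rescue (left, 72 regions) and the mutant rescue (right, 67 regions). Start-site regions (diamonds) all have a counterpart in the other line, and the regions in 1 line only (red) sit mostly at small widths and low −log10 q.

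WDR5 regions were few, and they lay at the starts of 5 members in the WT line: Pou3f1, Zic2, Foxd3, Lin28b and Etv4. That is 5 of 10, beside 16.9% of all protein-coding genes. In the mutant line they lay at 3 of 10, Pou3f1, Lin28b and Etv4, beside 9.97%. Thus 3 members were in both lists (4.5% of all genes), 2 in the WT line only (12.4%) and 0 in the mutant line only (5.47%). When regions under a −log10 q of 2 were left out, 3 and 0 members had one, beside 2.51% and 1.81% of all genes. These shares do not take into account that all members carry H3K4me3, and a difference of this size between lists of 10 genes has no replicate check.

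At Etv4 the lines had WDR5 regions at nearly the same place. The WT line listed 492 bp from 101783875 with a fold of 3.43 and a −log10 q of 3.33, the highest −log10 q of any WDR5 region near the members, and a further region of 212 bp with 0.854. The mutant line listed 519 bp from 101783818, with a fold of 2.94 and a −log10 q of 1.05. These summits lay 1.17 and 1.2 kb inside the gene, at the edge of the H3K4me3 domain. At Lin28b the WT line region was 219 bp from 45485620, with a fold of 3.87 and a −log10 q of 2.57. The mutant line region over it was 899 bp wide, at the 99.4th percentile of width in its list, but had a −log10 q of 0.116. A further mutant line region of 193 bp from 45486643 had a −log10 q of 0 and no overlap in the WT line. All of these lay inside the H3K4me3 domain of the upstream start, and the internal Lin28b start had none.

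Zic2 and Pou3f1 differed in how the lines compared. At Zic2 the WT line listed 345 bp from 122475486, 0.19 kb from the gene's end, with a fold of 3.53 and a −log10 q of 2.88, and the mutant line had none there. At Pou3f1 both lines had WDR5 at the start, but not at the same bases. The WT line region of 244 bp from 124657712 had a −log10 q of 0, and the mutant line regions of 161 bp from 124656765 and 327 bp from 124657101 had 1.12 and 0.888. At Foxd3 a region of 270 bp was in the WT line only, again with a −log10 q of 0. Zic2, Lin28b and Etv4 were the members with a start-site WDR5 region whose −log10 q passed 2, each in the WT line.

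Otx2, Dnmt3a, Dnmt3b, Fgf5 and Etv5 had no listed WDR5 region at a start in either line, although Dnmt3a, Dnmt3b and Etv5 had H3K4me3 regions there with a −log10 q above 300 in both lists. In the windows as a whole, 6 members had a WDR5 region in the WT line and 8 in the mutant line, beside 43% and 53.2% of all genes. Fgf5 and Etv5 had 0 in both lines.

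Nearly as many WDR5 regions lay at a start in either line, and the further ones of the longer mutant line list lay elsewhere. In the WT line 6 of 8 regions lay at a start and the other 2 inside Dnmt3a, 3.57 kb and 0.3 kb from the nearest H3K4me3 region. In the mutant line 5 of 16 lay at a start, 1 inside Lin28b and 10 outside the member genes. The 10 were at Otx2 (2), Dnmt3a (1), Dnmt3b (3), Zic2 (1), Foxd3 (2) and Lin28b (1). Among these, the region at Zic2 lies inside Zic5, 1 at Otx2 inside Otx2os1, and that at Lin28b inside the neighbouring gene Bves. The mutant line WDR5 list is 2.42 times as long as the WT line list, and the number near the members was 2 times as large. Of the 11 mutant line regions away from the starts 0 were overlapped in the WT line, where 5.09% of the whole mutant line list is overlapped. Their highest −log10 q was 1.21, at Dnmt3b 9.57 kb upstream of the start.

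Regions on H3K4me3 of the same line were 6 of 8 in the WT line (75%, exact interval 34.9 to 96.8%), beside 46% of that list, and 7 of 16 in the mutant line (43.8%, 19.8 to 70.1%), beside 12.3%. All 6 start-site WDR5 regions of the WT line and all 5 of the mutant line were on H3K4me3, and the other 2 of the mutant line lay upstream of Dnmt3b and inside Zic5. The windows are centred on genes that carry H3K4me3, and the lists are not. Overlap between the lines was found for 2 of 8 WT line regions (25%, 3.19 to 65.1%; 12.3% of the list) and 2 of 16 mutant line regions (12.5%, 1.55 to 38.3%; 5.09% of the list), at Lin28b and Etv4. A −log10 q of at least 2 was reached by 3 of 8 and 0 of 16, beside 10.8% and 4.83% of the lists.

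**Figure D4:**
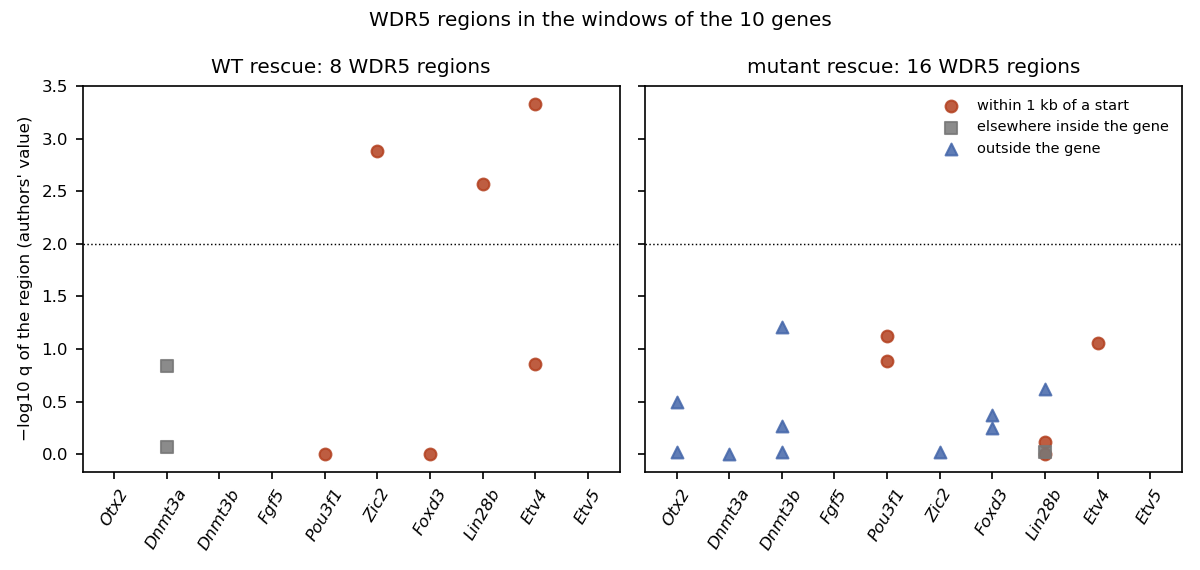
The −log10 q (authors' values) of each WDR5 region in the 10 windows in the WT rescue (left) and the mutant rescue (right), by position relative to the gene; the dotted line marks 2. In the WT rescue 3 regions, at Zic2, Lin28b and Etv4, lie above the line, and all 16 in the mutant rescue lie below it.

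Other genes of the same biology were read in the same way from lists written with earlier results of these data known. All 16 related formative and primed genes, all 11 genes of the FGF/ERK pathway, all 12 paralogs of the members and all 19 naive pluripotency genes had H3K4me3 at a start in both lines. For WDR5 the related formative and primed genes gave 6 of 16 in the WT line and 1 of 16 in the mutant line. Among the 6 were Cdh2, the N-cadherin gene (−log10 q 2.03), Sox11, a SOX factor gene that was in both lists (1.82 and 0), Tcf15, a bHLH factor gene (1.73), and Utf1 (1.03). The FGF/ERK genes gave 1 and 0 of 11, the 1 being Dusp4, a phosphatase that acts on ERK.

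The naive genes gave 5 and 1 of 19, with the transcription factor genes Sox2, Klf2 and Tfcp2l1 among the 5 and the homeobox gene Gbx2 as the 1. The Sox2 region was the only one of these past a −log10 q of 2, at 3.08. The start-site H3K4me3 cover had medians of 2564 and 2408 bp for the naive genes beside 2645 and 2609 bp for the members. Medians were 2662 and 2488.5 bp for the related formative and primed genes, 2951 and 2364 bp for FGF/ERK and 2884.5 and 2453 bp for paralogs. These lists stood above the members in the WT line and below them in the mutant line, so long cover was not particular to the members. For WDR5 the paralogs gave 0 and 2 of 12. Dnmt1, the maintenance methyltransferase gene (−log10 q 0.602), and Foxd1 (0) were the 2. Some genes stand in more than 1 of these lists.

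The cell type label was read against markers only as H3K4me3 at the start, which is not a level of expression. All 9 embryonic stem cell markers had a region in both lines. Of 10 fibroblast markers, which feeder cells would carry, 7 had a region in the WT line and 5 in the mutant line, beside the 69.7% and 69% of all genes. Col1a1 and Acta2 were in the WT line only, while Col3a1, Postn and Lum had none in either. Their summed H3K4me3 width at the start ran from 0 to 2492 bp in the WT line and from 0 to 1729 bp in the mutant line, and over the 5 markers with a region in both its medians were 1453 and 1152 bp. The part of such cells in the differences between the lines was not tested.

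**Figure D5:**
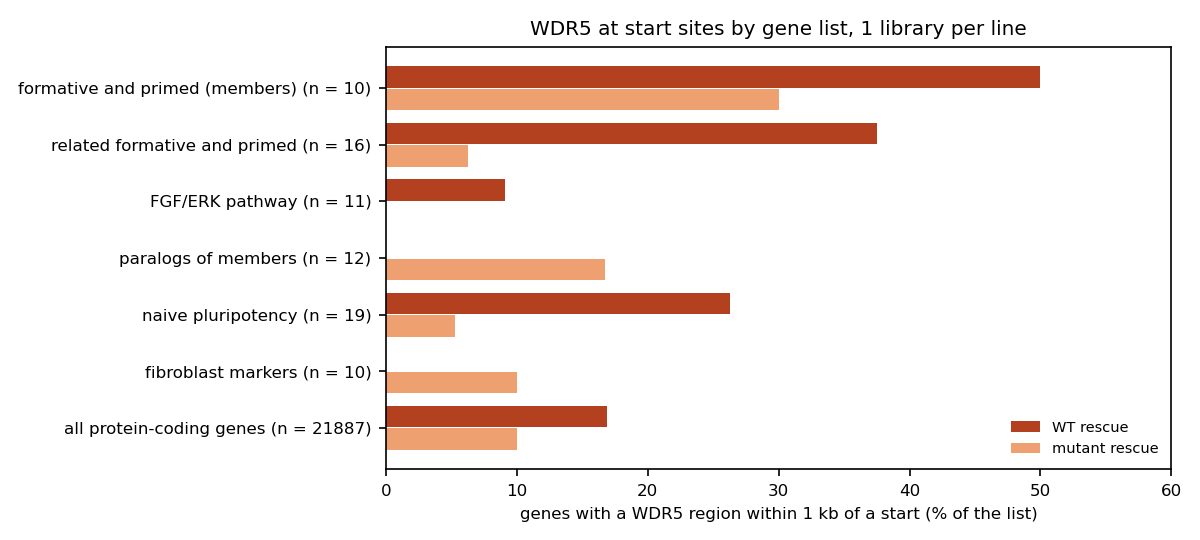
Percent of the genes of each list with a WDR5 region within 1 kb of a start in the WT rescue (dark bars) and the mutant rescue (light bars), with all protein-coding genes last; lists hold 10 to 19 genes and there is 1 library per line. The members stand at 50% and 30%, beside 16.9% and 9.97% of all genes.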

How the data were processed

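Per the submitters' processing notes, MACS2 2.1.2, BWA 0.7.17-r1188, Picard and SAMtools are named for these files, with the mm10 build. Settings and controls are not given in the sources used here. Each deposited list belongs to 1 library. The authors' files give for each peak a position, a summit, a fold enrichment, a −log10 p and a −log10 q, and a score that equals 10 times the deposited −log10 p and was not used further. The smallest deposited −log10 p was 2. Read depth is unknown, and the number and width of regions depend on it. No rows overlapped within a list, so each row is a region.

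Genes and promoters came from RefSeq (GRCm38.p6). Start sites were the gene's 5′ end and the starts of the promoter table, by strand for 79.9% of protein-coding genes and at both ends for the others. Overlap meant at least 1 bp. No test was made, since each antibody and line has 1 library. The members and lists were chosen with earlier results of these data known. All 10 members are named, and of other lists at most 4 genes with WDR5 per list and those without H3K4me3. Acta2 was named after its values were seen. Region matching was tested on simulated data. Tools were pandas 2.3.3, numpy 2.4.6, scipy 1.17.1 and matplotlib 3.10.9 under Python 3.11.15. Alternatives were stricter thresholds, lists of equal length, other windows, a reciprocal overlap of 50%, joined rows and either gene end.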

Additional observations from a re-analysis of the deposited data

How the results depend on the processing

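Of 105 alternative values over 18 results, 78 stayed near the reported value and 27 did not. Near meant within 1.5 times for a count, within the 95% interval for a share and within the members' quartiles for a ratio. The intervals of the overlapped WDR5 shares were wide, 3.19 to 65.1% and 1.55 to 38.3%. With lists of equal length a WT line share of 12.5% in place of 25% therefore counted as near. Such labels say little for these shares. The 10 members with H3K4me3 at a start in both lines became 9 with either gene end (Dnmt3a has no region at its annotated ends), and the ratio of covered length stayed within its quartiles in each alternative run. WDR5 depended on the threshold. When regions under a −log10 q of 2 were left out, the WDR5 regions near the members were 3 in the WT line and 0 in the mutant line, 3 and 0 on H3K4me3, with 3 and 0 members at a start, 0 in both lines and 0% of the WT line regions overlapped. With a −log10 p of at least 5 these were 3 and 2 regions, 3 and 1 on H3K4me3, and 3 and 1 members, 0 in both lines, with 0% overlapped in either direction. Cut to equal length, the mutant line list had 9 WDR5 regions near the members, 4 of them on H3K4me3. A reciprocal overlap of 50% left 0 and 2 WDR5 regions on H3K4me3, since these regions are far narrower, and brought the overlapped H3K4me3 regions to 55.6% in the WT line and 59.7% in the mutant line. A 5 kb window held 47 WT line H3K4me3 regions and 8 mutant line WDR5 regions, and a 50 kb window held 115 and 114 H3K4me3 regions. No share of overlapped mutant line WDR5 regions exists at a −log10 q of at least 2, because none were left. No paired analysis was possible because each group has 1 library and the result comes from no test. The unknown read depth limits what absence from a list shows.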

Other observations

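Neighbouring genes share the windows of several members. Zic5, the zinc-finger gene next to Zic2, had an H3K4me3 domain of 3246 bp in the WT line and 2979 bp in the mutant line, wider in the WT line than any at the members' own starts, and the mutant line WDR5 list held a region of 208 bp inside it with a −log10 q of 0.0171. A region of 1158 bp in the WT line and 1121 bp in the mutant line (from 122490230 and 122490229), with folds of 14.3 and 13.6, lay inside Pcca, a mitochondrial carboxylase gene on the other side of Zic2, and was the region of highest fold in that window in both lines. The region at the start of Commd7, of 1208 and 1311 bp, lay 16.8 kb upstream of the Dnmt3b start.

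Many listed values are exact repeats. Among the regions near the members, 23 of 72 WT line and 21 of 67 mutant line H3K4me3 regions had the same fold and −log10 q as another region of their list, as did 7 of 8 and 16 of 16 WDR5 regions. Over the whole lists the shares were 54.1% and 59.1% for H3K4me3 and 89.8% and 95.3% for WDR5. For instance, distal H3K4me3 regions of 429 bp at Fgf5, 384 bp at Pou3f1 and 493 bp at Etv5 in the WT line all had a fold of 4.23 and a −log10 q of 7.15.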
